A study of Homo sapiens with 6 samples.

Results

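Matrix metalloproteinases, their tissue inhibitors and the urokinase plasminogen activator were followed in SKOV3, an established human ovarian cancer cell line, by 9 genes chosen by name: MMP1, MMP2, MMP7, MMP9, MMP14, TIMP1, TIMP2, TIMP3 and PLAU. They were 9 of the 39641 genes that had a probe of their own on the array, and 13 probes matched them. RNA was measured on 6 single-color Agilent arrays, of which 3 carry the label of 1α,25(OH)2D3, the hormonally active form of vitamin D, at 100 nmol/L for 72 h, and 3 that of its ethanol vehicle for 72 h. The cell line field of all 6 samples names SKOV-3, while their titles read SKOV-1 and their growth protocol SKOV-13; the study's SKOV3 is used here, and no genetic change is named. Nothing in the labels says that replicates were separate cultures, so p-values measure the spread between arrays, which may be technical.

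Matrix metalloproteinases are zinc-dependent endopeptidases that are made as inactive precursors and cut collagen, gelatin, laminin and other parts of the extracellular matrix. TIMPs bind their active sites and block them. The urokinase plasminogen activator, encoded by PLAU, turns plasminogen into plasmin on the cell surface, and plasmin cuts fibrin and activates several metalloproteinase precursors. In ovarian cancer these proteases are known for their part in peritoneal invasion.

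CYP24A1, which encodes the 24-hydroxylase that breaks down 1α,25(OH)2D3 and is a standard target of the vitamin D receptor, was read as a check of the labels. On the series' log2 scale its probe A_23_P28815 gave 2.23, 13.84 and 3.30 on replicates 1, 2 and 3 of the label 1α,25(OH)2D3, and 14.18, 4.75 and 14.34 on those of the label vehicle. Values of 3 arrays are given in this order throughout. The coding probe A_33_P3369401 read 3.88, 14.64 and 4.46, then 15.16, 8.24 and 15.25. At that probe vehicle replicate 2 lay in between and was well above background. A probe in a non-coding transcript of the gene, OEV5_63001, read 2.14, 9.99 and 2.15, then 10.32, 2.21 and 10.23. High signals of A_23_P28815 thus stood on 1 array of the first label and 2 of the second, which goes against the labels. By label the log2 difference at A_23_P28815 was -4.64, lower at the label 1α,25(OH)2D3. The study reports CYP24A1 as the mRNA that treatment raised most, a direction that the deposited labels do not give. Some arrays may thus carry the wrong label, and which arrays do was not tested. Differences by label, here and below, may compare mixed groups and cannot be read as treated against vehicle cells. Slide 1 held 1α,25(OH)2D3 replicates 1 and 2 alone and slide 2 the other 4 arrays, so slide and label overlap in part. The share of probes well above background ran from 49.1%, on the array labelled vehicle replicate 2, to 57.5%, and no spot was saturated. The 6 epithelial and ovarian markers with a probe of their own (KRT7, KRT8, KRT18, EPCAM, ERBB2 and MUC16) passed the background on every array. Of the fibroblast markers DCN was above it on no array and LUM on 1, while COL1A1, COL3A1, PDGFRB, the leukocyte markers PTPRC, CD14 and CD3E and the endothelial markers PECAM1, VWF and CDH5 were above it on all 6, and their part in the results was not tested.

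Each probe is a 60-base DNA strand, and 9 of the 13 were well above background on all 6 arrays. The probes of the 3 members with a coding probe are shown because they say which part of the transcript was measured: MMP7, which varied most between arrays, TIMP1, whose labelled groups did not overlap, and PLAU, which has a coding probe and a 3′ UTR probe. All bases are in lower case, 5′ to 3′ along the transcript, and each matched hg38 at 1 place.
MMP7 (A_23_P52761, coding sequence in exon 5 of 6, chr11:102523298-102523357, minus strand): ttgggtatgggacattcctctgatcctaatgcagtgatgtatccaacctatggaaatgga
TIMP1 (A_23_P62115, coding sequence in exon 4 of 6, chrX:47585267-47585326, plus strand): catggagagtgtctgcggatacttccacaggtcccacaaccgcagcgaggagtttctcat
PLAU (A_33_P3306146, coding sequence in exon 9 of 11, chr10:73914856-73914915, plus strand): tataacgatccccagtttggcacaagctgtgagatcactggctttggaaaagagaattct
For MMP1, the member with the next widest range, and TIMP3, the first 30 of the 60 bases are given, since both probes lie in the 3′ UTR.
MMP1 (A_23_P1691, probe at chr11:102789966-102790025, minus strand): acatgtgcagtcactggtgtcaccctggat
TIMP3 (A_23_P399078, probe at chr22:32862553-32862612, plus strand): caagatggcacccaagtgtttggcttctgg
The probes of MMP2 (A_33_P3237135), MMP9, MMP14 (A_24_P82106), TIMP2 and the other PLAU probe (A_23_P24104) also lie in 3′ UTRs.

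No member differed between the labels beyond the thresholds used. Of the 13 probes, 10 were tested, because all 3 arrays of at least 1 label showed them well above background, and each of the 9 genes had a tested probe. By limma, 0 of the 10 passed both a fold change of 2 and an unadjusted p of 0.05, against 472 of 63337 probes over the whole array, or 0.745%. An adjusted p under 0.05 was reached by 0 of the 10 and by 0 of the 63337 probes (0.0%). An unadjusted p under 0.05 was reached by 1 of the 10, the probe of TIMP1, against 6.77% of all probes, and the methods' t-test likewise gave 1 of 10. With 1 probe per gene the median log2 difference, label 1α,25(OH)2D3 minus label vehicle, was 0.15 over the 9 members and -0.0053 over all 24701 genes tested. Over all 63337 probes it was -0.0037. In RNA from whole cultures, fewer cells that express a gene and less RNA per cell cannot be told apart.

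**Figure D1:**
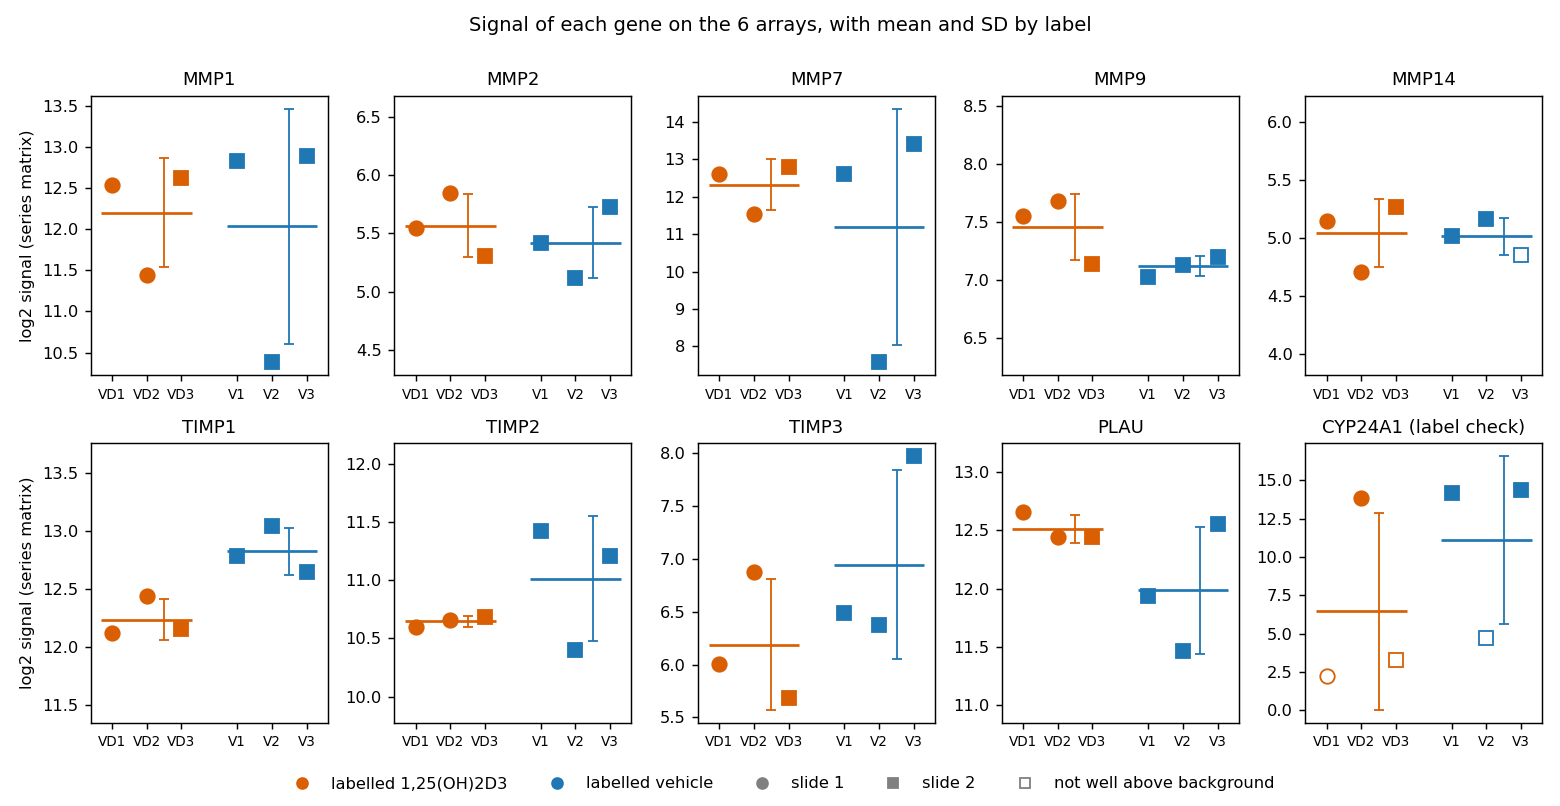
Log2 signal of the 9 member genes (the probe with the highest mean of each) and of CYP24A1 (A_23_P28815) on the 6 arrays. VD and V are arrays labelled 1,25(OH)2D3 and vehicle, circles and squares are slides 1 and 2, open symbols are not well above background, horizontal lines are means and bars SD (n = 3). MMP7 ran from 7.58 to 13.41, and the labels of TIMP1 alone did not overlap among the members; vertical scales differ between panels.

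MMP7 encodes matrilysin, a small metalloproteinase of epithelial cells that lacks the hemopexin domain of most of the family. Its log2 signal was 12.61, 11.55 and 12.80 at the label 1α,25(OH)2D3, and 12.59, 7.58 and 13.41 at the label vehicle. The array labelled vehicle replicate 2 stood 3.97 below the next lowest array, a 15.7-fold gap, while the other 5 arrays spanned 1.87. The range over the 6 arrays was 5.84, or 57.2-fold, the widest of the members. By label the log2 means were 12.32 ± 0.67 and 11.19 ± 3.16 (SD, n = 3 each), the groups overlapped, and the difference of 1.13 had a 95% interval from -2.05 to 4.30 (limma, adjusted p = 0.824). Without the array labelled vehicle replicate 2 the difference turned to -0.68.

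MMP1, the interstitial collagenase that makes the first cut in fibrillar collagen, had log2 signals of 12.54, 11.44 and 12.63 at the label 1α,25(OH)2D3 and 12.84, 10.38 and 12.89 at the label vehicle. The 2 lowest arrays were again those labelled vehicle replicate 2 and 1α,25(OH)2D3 replicate 2, and the other 4 lay between 12.54 and 12.89. The groups overlapped, with means of 12.20 ± 0.66 and 12.04 ± 1.43 (SD, n = 3 each) and a difference of 0.17 with a 95% interval from -1.41 to 1.74 (limma, adjusted p = 0.955). Without the array labelled vehicle replicate 2 it was -0.66, and within slide 2 (1 array against 3) it was 0.59.

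MMP9 encodes gelatinase B, which cuts denatured collagen and type IV collagen of basement membranes. Its log2 signal was 7.55, 7.68 and 7.14 at the label 1α,25(OH)2D3 and 7.03, 7.13 and 7.20 at the label vehicle. The 2 arrays of slide 1 held the highest signals, and the third array labelled 1α,25(OH)2D3, on slide 2, lay within the vehicle range. The difference by label was 0.33 (95% interval -0.10 to 0.76; limma, adjusted p = 0.702). Within slide 2 (1 array against 3) it was 0.01.

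MMP2 encodes gelatinase A, and MMP14 the membrane-bound metalloproteinase that activates its precursor. The 3′ UTR probe of MMP2 read 5.55, 5.85 and 5.31 at the label 1α,25(OH)2D3 and 5.42, 5.12 and 5.73 at the label vehicle, all well above background. The leukocyte markers CD3E (5.84 to 6.25) and PTPRC (6.49 to 7.14) and the endothelial CDH5 (7.73 to 8.25) were so on all 6 arrays too. DCN, at up to 4.18, was so on none and LUM, at up to 4.08, on 1. At such levels the flag alone does not show expression of MMP2, MMP14 or MMP9 in this carcinoma line. The log2 difference of MMP2 was 0.15, with a 95% interval from -0.36 to 0.66 (limma, adjusted p = 0.861), and within slide 2 it was -0.12. The other 2 MMP2 probes, which overlap each other in the 5′ UTR of an alternative transcript, were well above background on no array and were not tested.

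MMP14 read 5.15, 4.71 and 5.26 at the label 1α,25(OH)2D3 and 5.02, 5.17 and 4.85 at the label vehicle, the last not well above background. Its probe has 10 spots on each array, and single spots had a log2 SD of 0.16 to 0.32 within an array. The range over the 6 arrays was 0.55. The difference by label was 0.03 (95% interval -0.43 to 0.48; limma, adjusted p = 0.975), and within slide 2 it was 0.25. A further MMP14 probe, in a non-coding transcript of the gene, was well above background on no array and was not tested.

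TIMP1, a secreted inhibitor of most metalloproteinases that also acts as a growth factor, was the single member whose labelled groups did not overlap. Its log2 signal was 12.12, 12.44 and 12.15 at the label 1α,25(OH)2D3 and 12.78, 13.04 and 12.65 at the label vehicle. Every array labelled 1α,25(OH)2D3 was below every array labelled vehicle, by at least 0.21. Groups that do not overlap were found for 1 of the 10 tested member probes and for 12.2% of all probes tested, with 5.18% lower at the label 1α,25(OH)2D3 as TIMP1 was. The means were 12.24 ± 0.17 and 12.82 ± 0.20 (SD, n = 3 each), a log2 difference of -0.59 (95% interval -0.995 to -0.177), or 1.50-fold lower at the label 1α,25(OH)2D3. The limma p was 0.0111, but the adjusted p was 0.701. Within slide 2 the difference was -0.67, and leaving out 1 array at a time gave -0.69 to -0.48.

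TIMP2, which inhibits MMP2 and also helps MMP14 to activate its precursor, had log2 signals of 10.60, 10.66 and 10.69 at the label 1α,25(OH)2D3, within 0.1 of each other. The arrays labelled vehicle read 11.43, 10.40 and 11.21, above and below that level. The difference was -0.37 (95% interval -0.98 to 0.25; limma, adjusted p = 0.726). Without the array labelled vehicle replicate 2, the lowest of the 6, it was -0.67, and without vehicle replicate 1 it was -0.16.

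TIMP3, the inhibitor that stays bound to the matrix and also blocks ADAM proteases, read 6.002, 6.88 and 5.69 at the label 1α,25(OH)2D3 and 6.49, 6.38 and 7.97 at the label vehicle. The highest signal, on the array labelled vehicle replicate 3, and the lowest, on 1α,25(OH)2D3 replicate 3, differed by 2.29, or 4.87-fold. By label the means were 6.19 ± 0.62 and 6.95 ± 0.89 (SD, n = 3 each), the groups overlapped, and the difference was -0.76 (95% interval -1.86 to 0.35; limma, adjusted p = 0.707). Within slide 2 it was -1.26, and without the array labelled vehicle replicate 3 it was -0.24.

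PLAU was read by 2 probes. The 3′ UTR probe gave log2 signals of 12.66, 12.44 and 12.44 at the label 1α,25(OH)2D3 and 11.94, 11.47 and 12.55 at the label vehicle. The coding probe gave 10.63, 10.86 and 10.99 and then 10.61, 9.67 and 11.35. Both probes were lowest on the array labelled vehicle replicate 2, and the array labelled vehicle replicate 3 reached into or above the range of the other label. The difference was 0.53 at the 3′ UTR probe (95% interval -0.10 to 1.16; limma, adjusted p = 0.701) and 0.28 at the coding probe (95% interval -0.62 to 1.19; limma, adjusted p = 0.846). Within slide 2 both were 0.45.

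**Figure D2:**
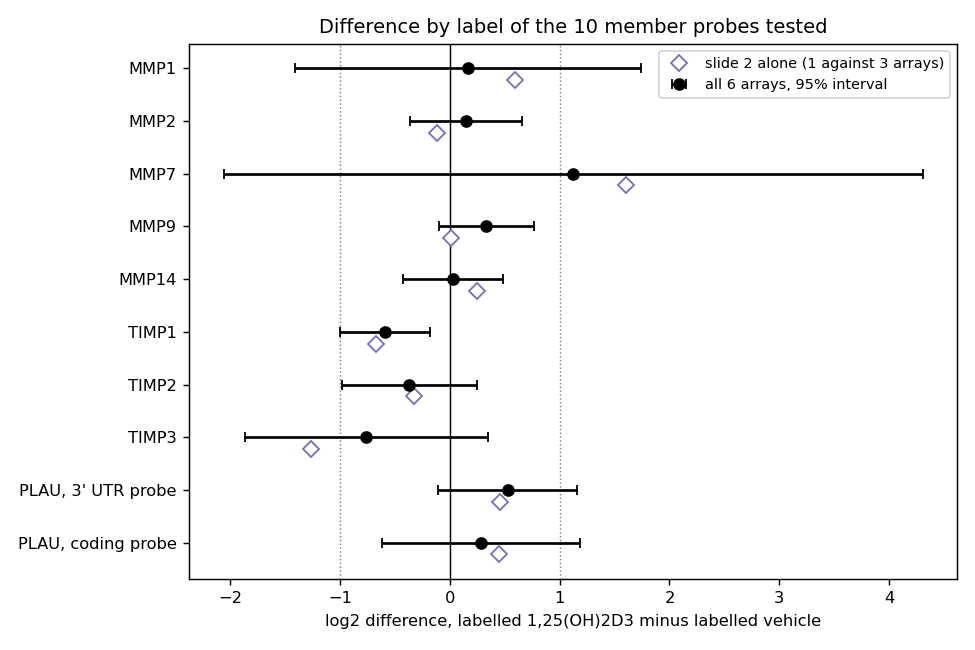
Log2 difference between labels (1,25(OH)2D3 minus vehicle) of the 10 member probes tested. Black points are all 6 arrays with limma's 95% interval, open diamonds slide 2 alone, and dotted lines a fold change of 2; the interval of TIMP1, -0.995 to -0.177, is the only one of the 10 that leaves out 0.

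Across the members, 6 of the 10 tested probes had their lowest signal on the array labelled vehicle replicate 2 (MMP1, MMP2, MMP7, TIMP2 and both PLAU probes), against 17.1% of all probes tested. TIMP1 was highest on that array. The gap from it to the next lowest array was 3.97 for MMP7, 1.06 for MMP1, and 0.47 and 0.94 for the PLAU probes. It was only 0.18 for MMP2 and 0.19 for TIMP2. CP and QPRT were among the 3 genes whose centred log2 values lay closest to those of MMP7 over the 6 arrays, out of 18708 genes well above background on all of them, with root mean square differences of 1.01 and 1.05. CP, the copper protein ceruloplasmin, and QPRT, an enzyme of NAD synthesis, were lowest on the array labelled vehicle replicate 2, at 5.56 and 9.07. Because they were picked for closeness to MMP7, a shared lowest array follows largely from the choice and is no separate evidence. The closest to MMP1 were LRRC61, NABP1 and LINC02615, with differences of 0.36, 0.38 and 0.39. All of these genes share the same 6 arrays.

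Beside the CYP24A1 signal, the members are described array by array, without means or tests, because a split by a measured signal is not one that the labels give, although CYP24A1 is at odds with them. High and low are by probe A_23_P28815, while at the coding probe vehicle replicate 2, counted as low, read an intermediate 8.24. The 3 arrays with high CYP24A1 (1α,25(OH)2D3 replicate 2, vehicle replicates 1 and 3) read 6.88, 6.49 and 7.97 for TIMP3. The 3 with low CYP24A1 read 6.002, 5.69 and 6.38. The 2 sets did not overlap, with a gap of 0.11. MMP14 read 4.71, 5.02 and 4.85 on the arrays with high CYP24A1 and 5.15, 5.26 and 5.17 on the others, a gap of 0.13. That gap is below the log2 SD of single spots of this probe within an array, 0.16 to 0.32. On vehicle replicate 3 the MMP14 signal was not well above background. The other 8 tested probes overlapped. Signals that do not overlap between these sets of arrays were found for 6.17% of all probes tested, 3.29% higher and 2.88% lower with high CYP24A1. For MMP7 the arrays with high CYP24A1 held both the highest signal of the 6, 13.41, and the second lowest, 11.55.

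**Figure D3:**
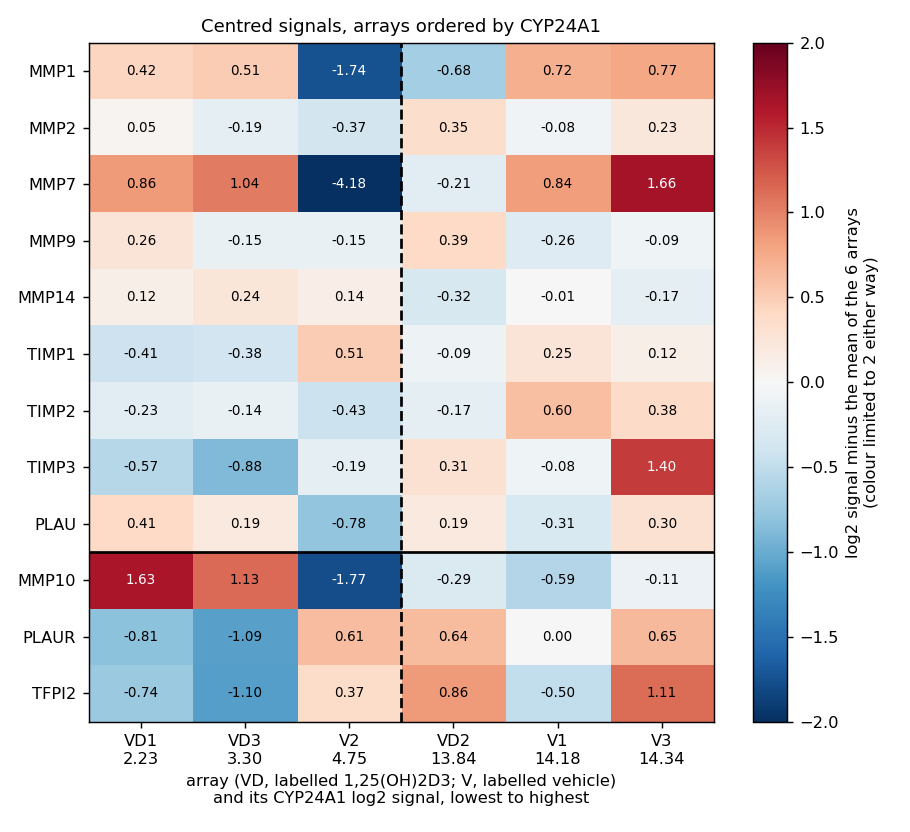
Log2 signal minus the gene's mean over the 6 arrays, for the 9 members (above the line) and 3 other genes of the pathway. Arrays run from the lowest to the highest CYP24A1 log2 signal of probe A_23_P28815 (numbers under the array names). Red is above and blue below the gene's mean; MMP1, MMP7 and MMP10 have their lowest value, -1.74, -4.18 and -1.77, in the column V2, and the dashed line marks the gap in CYP24A1 from 4.75 to 13.84.

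Of the 39 other genes of the pathway that were listed, 38 had a probe of their own. The single probe of MMP23B also matched its copy MMP23A and was left out. With 1 probe per gene, 25 were well above background on all 6 arrays and tested, 11 were above it on no array, and MMP20 and MMP26 on 1 and 2 arrays. Of the 25, 1 passed the fold change of 2 and the unadjusted p (it was higher at the label 1α,25(OH)2D3, as were 0.486% of all probes by that rule), 0 were lower by it and 0 had an adjusted p under 0.05. The unadjusted p was under 0.05 for 2 of them by limma and for 3 by the methods' t-test. Their median difference was 0.03. The labelled groups of these 25 did not overlap for 3 genes higher at the label 1α,25(OH)2D3 (PLAT, LRP1 and FURIN) and for 1 lower (BSG). Of all probes tested, 12.2% did not overlap in either direction and 5.18% did not overlap and were lower. For 5 of the 25 the brightest probe, the one used, lies in an exon of a non-coding transcript. Other probes of these genes that were tested numbered 28, of which 0 were called and 17 had a difference opposite in sign to that of the probe used.

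The 1 called gene was MMP10, or stromelysin 2, among 9 other metalloproteinases tested. Its log2 signal was 10.695, 8.78 and 10.20 at the label 1α,25(OH)2D3 and 8.48, 7.29 and 8.95 at the label vehicle. The labels overlapped, because 1α,25(OH)2D3 replicate 2 was below vehicle replicate 3. The difference was 1.65 (95% interval 0.33 to 2.97), or 3.14-fold higher at the label 1α,25(OH)2D3, with a limma p of 0.0210 and an adjusted p of 0.701. The call was lost with the slide as a block (1.96), with the methods' t-test, and without 1α,25(OH)2D3 replicate 1 (1.25), 1α,25(OH)2D3 replicate 3 (1.50) or vehicle replicate 2 (1.17). The next largest differences among the genes tested in that list did not pass: MMP21 differed by -0.43 (95% interval -0.88 to 0.03) and MMP16, a membrane-bound metalloproteinase, by 0.19 (-0.45 to 0.83), which turned to -0.35 within slide 2. MMP26 was not tested. Its probe in the 5′ UTR of an alternative transcript read 4.69, 4.03 and 6.06 at the label 1α,25(OH)2D3 and 2.17, 4.44 and 2.18 at the label vehicle. It was well above background on 2 arrays. The MMP26 probe in the 3′ UTR lay between 2.04 and 2.17 and was well above background on no array.

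MMP7, MMP10 and MMP1 lie in a cluster of 9 metalloproteinase genes on chromosome 11, chr11:102520508-102955732 in hg38, which spans 435 kb. These 3 were well above background on all 6 arrays, MMP20 was on 1 array, and MMP27, MMP8, MMP3, MMP12 and MMP13 were on none, so the only signal from the cluster on every array was that of matrilysin, stromelysin 2 and the interstitial collagenase. Each of the 3 had its lowest signal on the array labelled vehicle replicate 2.

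The promoters of the members and of the pathway genes were then read for the AP-1 element, the site of Fos and Jun dimers. The letters were TGAGTCA and the wider form TGANTCA, on both strands. This search was made after these neighbours were seen to be lowest on the same array, and a link to that pattern was not tested. RefSeq promoters (GRCh38.p14, 250 bases before to 50 after the start) were given for 5 of the 9 members and 27 of the pathway genes. TGAGTCA was found in 1 of the 5 members, MMP7, in 2 of the 27 pathway genes and in 4.95% of all 35116 promoters. TGANTCA, which includes TGAGTCA, was found in the same member, in 6 of the 27 pathway genes and in 7.71% of all promoters. The 6 were MMP10, MMP20, SERPINB2, TFPI2, PLAUR and ANXA2, the last 2 with TGAGTCA. Of the genes with a match, MMP7 and MMP10 were lowest on vehicle replicate 2, and TFPI2, PLAUR and ANXA2 on 1α,25(OH)2D3 replicate 3. MMP20, well above background on 1 array, was lowest on vehicle replicate 1. SERPINB2, above it on no array, was lowest on 1α,25(OH)2D3 replicate 3. Whether the motif bears on any of these patterns was not tested. The matches of MMP7 and MMP10 both began 67 bases before the start, and are shown with 20 bases on either side and the motif in capitals.
MMP7 promoter (chr11:102530788-102530834, minus strand): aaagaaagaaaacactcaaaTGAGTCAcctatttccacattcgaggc
MMP10 promoter (chr11:102780669-102780715, minus strand): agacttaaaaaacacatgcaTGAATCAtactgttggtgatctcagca
MMP1, MMP2, MMP9 and TIMP2 had no entry. A match describes the letters and is not evidence of binding.

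The plasminogen system beside PLAU had 9 of 12 genes tested, and with 1 probe per gene none was called over all 6 arrays. PLAUR, the urokinase receptor, read 8.64, 10.10 and 8.36 at the label 1α,25(OH)2D3 and 9.46, 10.07 and 10.11 at the label vehicle, low on 1α,25(OH)2D3 replicates 1 and 3 and between 9.46 and 10.11 on the other 4. Its difference was -0.84 (95% interval -1.87 to 0.18; limma, adjusted p = 0.701), and with the slide as a block or within slide 2 (1 array against 3) it was -1.51. In both of these it passed the fold change of 2 and the unadjusted p, but not an adjusted p of 0.05. The 10 spots of the PLAUR probe had a log2 SD of 0.05 to 0.13 within an array.

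PLAT, the tissue plasminogen activator, gave different patterns at different probes. The brightest, in an exon of a non-coding transcript of the gene, read 10.76, 10.59 and 10.34 at the label 1α,25(OH)2D3 and 10.13, 9.98 and 9.96 at the label vehicle, with no overlap and a difference of 0.54 (95% interval 0.15 to 0.93; limma, adjusted p = 0.701). With the slide as a block or within slide 2 it was 0.31, and the unadjusted p was no longer under 0.05. The probe in the 3′ UTR of the mRNA read 7.19, 8.05 and 6.58 and then 6.85, 7.74 and 8.28, with overlapping labels and a difference of -0.35. LRP1, a receptor that takes up protease and inhibitor complexes, differed by 0.12 at its brightest probe, in a non-coding transcript, where the labels did not overlap. At 2 probes of its coding sequence they did not overlap either, but in the other direction. The differences there were -0.73 (95% interval -1.22 to -0.25, limma adjusted p = 0.701) and -0.40 (95% interval -0.81 to 0.0022). A further LRP1 probe, in another non-coding transcript, differed by -0.10 with overlapping labels. Plasminogen itself (PLG) and the inhibitors SERPINB2 and SERPINA5 were well above background on no array.

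Among sheddases and activators 6 of 7 genes were tested and none was called. TFPI2, a matrix-bound Kunitz inhibitor of plasmin, read 10.85, 12.45 and 10.49 at the label 1α,25(OH)2D3 and 11.09, 11.96 and 12.70 at the label vehicle, a difference of -0.66 (95% interval -1.99 to 0.67; limma, adjusted p = 0.762) that was -1.43 with the slide as a block or within slide 2. The lowest 2 arrays for TFPI2 and for PLAUR were the same, 1α,25(OH)2D3 replicates 1 and 3. FURIN, a protease that activates membrane-type metalloproteinases, differed by 0.35 at its brightest probe, in a non-coding transcript (95% interval -0.0015 to 0.69; limma, adjusted p = 0.701), and by 0.14 at the 3′ UTR probe (95% interval -0.53 to 0.81). BSG, which encodes the metalloproteinase inducer basigin, differed by -0.21 at its brightest probe, in the 3′ UTR (95% interval -0.56 to 0.14). At its other probe, in a non-coding transcript, the labels overlapped and the difference was 0.26 (95% interval -0.14 to 0.66). Of the other inhibitors, RECK differed by -0.06 (95% interval -0.53 to 0.42) and by -0.34 within slide 2, and TIMP4 was well above background on no array.

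**Figure D4:**
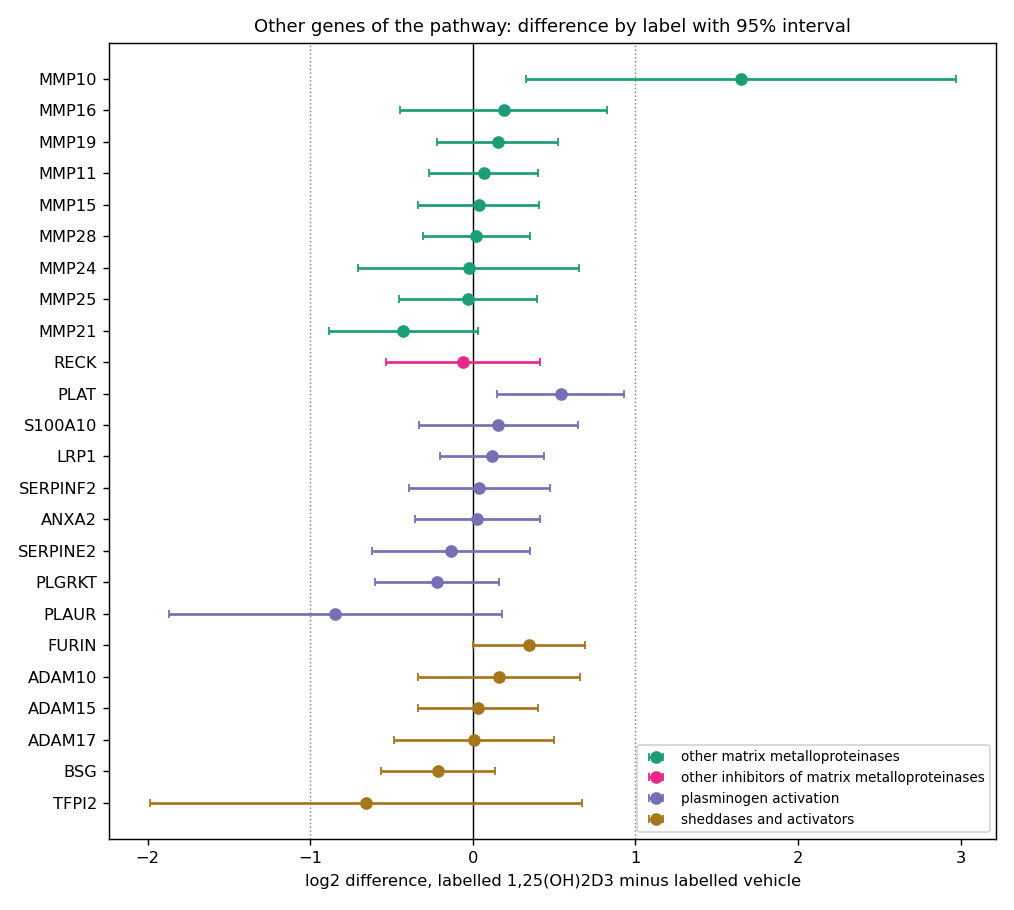
Log2 difference between labels (1,25(OH)2D3 minus vehicle) with limma's 95% interval for 24 of the 25 tested genes of the 4 lists around the members, 1 probe per gene. Dotted lines mark a fold change of 2; MMP10, at 1.65, is the only point beyond them, and the intervals of MMP10 and PLAT leave out 0, while with the slide as a block neither gene had an unadjusted p under 0.05.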

How the data were processed

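The authors read the scanned arrays with Agilent Feature Extraction 10.7.1.1 and deposited, per spot, the intensity of each probe on a linear scale with detection flags. A second file deposited by the authors holds log2 values, 1 per probe and array, normalized by quantiles between arrays (the median was 4.78 on each array), which was used here; the software of that step is not given in the sources used here. The files name no genes, so the 60-base probe sequences were matched without mismatch, in sense, to GENCODE release 44 transcripts: 86414 probes matched 1 gene, 4190 several (left out) and 34997 none. A probe counted as well above background where over 50% of its spots that were not outliers had that flag, and only probes above it on all 3 arrays of at least 1 label were tested. Groups came from the labels.

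limma 3.58.1 in R 4.3.3 was fitted to all 63337 probes with no covariate, with Benjamini-Hochberg adjustment over all of them, and the fit was tested on simulated data. For several probes of a gene, the one with the highest mean was used. The thresholds were a fold change above 2 with unadjusted p under 0.05 (the study's results) and an adjusted p under 0.05, which the study's methods join to an absolute log2 fold change above 2. The number of arrays, 3 per label, limits the precision. Genes named beside the members were those called, the 3 largest differences in each list, and the 3 genes closest to each of the 2 most variable members; other probes and genes were named after their values were seen. The values of 2 genes that fall under this rule are not reported here. The members and lists were chosen with earlier results of these data known. Alternatives were the scanner signals scaled to the 75th percentile, normexp correction with an offset of 50, other filters, the replicate number or slide as a block, slide 2 alone, the methods' t-test (which the study names for its experimental data and not for the arrays, where it names limma), other probes, 1 probe per gene and each array left out. Where slide 2 alone or a left-out array leaves 1 or 2 arrays at a label, their spread is taken to be that of the others.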

Additional observations from a re-analysis of the deposited data

How the results depend on the processing

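No member passed a fold change of 2 with an unadjusted p under 0.05 under any of the alternatives, and none reached an adjusted p under 0.05. Of 121 differences of single members under alternatives, 110 kept their direction, and MMP9, TIMP1, TIMP2, TIMP3 and PLAU kept it in all of theirs. The difference of MMP2 turned to -0.0083 with normexp correction and to -0.12 with the slide as a block or slide 2 alone. Leaving out 1 array gave -0.66 to 0.59 for MMP1, -0.0050 to 0.30 for MMP2, -0.68 to 2.24 for MMP7 and -0.084 to 0.19 for MMP14. TIMP1 had an unadjusted p under 0.05 in each alternative, and MMP9 without 1α,25(OH)2D3 replicate 3, TIMP2 without vehicle replicate 2 and PLAU without vehicle replicate 3 did as well.

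Over all probes, 472 were past a fold change of 2 with p under 0.05 (308 higher, 164 lower). This was 33 (14 higher, 19 lower) with normexp correction, 1612 (872 and 740) without a filter, 157 with a filter on all 6 arrays, 808 (402 and 406) with the slide as a block, 797 (386 and 411) within slide 2, 139 with the methods' t-test and 182 with 1 probe per gene. Leaving out 1 array gave 296 (without 1α,25(OH)2D3 replicate 1) to 1181 (without 1α,25(OH)2D3 replicate 3, 497 higher and 684 lower), with 1109 without vehicle replicate 1. An adjusted p under 0.05 was reached by 0 to 4 probes, the 4 without vehicle replicate 1, none of them a member. Of the pathway genes, 1 was called (MMP10), 2 within slide 2 (MMP10 and PLAUR), 0 with the methods' t-test, 1 with the slide as a block (PLAUR), and 0 to 3 without 1 array: 3 without 1α,25(OH)2D3 replicate 2 (MMP10, PLAUR and TFPI2), and 0 without 1α,25(OH)2D3 replicate 1 or 3 or vehicle replicate 2. The cause of these moves was not tested. The number of probes tested also differed between settings. The main setting called 472 of 63337 probes, and the filter on all 6 arrays called 157 of 57062. With 1 probe per gene 182 of 24701 were called, and without a filter 1612 of 125601.

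Deviations from the group means correlated at 0.12, 0.09 and -0.03 between arrays with the same replicate number, 1, 2 and 3. Between arrays with unlike numbers they correlated at -0.25 to 0.19, so no pairing by number was seen. With 3 arrays per label, and labels that may be wrong, this cannot settle whether the samples were paired. With the replicate block 582 probes were called (384 higher, 198 lower), and it called no member and 1 pathway gene, MMP10.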
